A study of Mus musculus with 6 samples.

Results

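The nuclear genes of oxidative phosphorylation were followed in HL-1 cells, a contractile cell line derived from mouse atrial cardiomyocytes, after silencing of Malat1. Genes were taken from the deposited table if it lists them as protein coding and if their symbol begins with Nduf, Sdh, Uqcr, Atp5, or Cox followed by a digit from 4 to 8, or is Cyc1 or Cycs. This rule found 99 of the 21269 genes in the table, of which 14262 are protein coding. The 99 genes comprised 45 of complex I, 8 of complex II, 9 of complex III, 1 for cytochrome c, 19 of complex IV, and 17 of complex V. Among them were 12 assembly factors, which help to build a complex without staying in it, and Ndufb1-ps and Cox5b-ps, which the table lists as protein coding although their symbols name pseudogenes. The rule used no measured value.

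Oxidative phosphorylation takes place at the inner mitochondrial membrane. Complexes I and II pass electrons from NADH and succinate to ubiquinone, complex III passes them to cytochrome c, and complex IV passes them to oxygen. Complexes I, III, and IV pump protons, and complex V uses the proton gradient to make ATP. Most subunits are encoded in the nucleus, a few are encoded in mitochondrial DNA, and heart muscle depends on this pathway for most of its ATP.

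Cells were transfected with 50 nM of an LNA gapmer, a short DNA strand with locked ends that directs RNase H to a matching RNA. The LNA Control group and the LNA Malat1 group, whose gapmer targets the long noncoding RNA Malat1, each had 3 libraries. Transfection came 24 hours after seeding and 48 hours ahead of harvest. Both groups are the same cell line, with no modification or further treatment named in the labels. The study's methods list norepinephrine in the medium used to culture HL-1 cells. The labels do not say whether libraries of a group came from separate cultures, so p-values measure the spread between these libraries, which may be technical.

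Values are normalized counts, that is, reads per gene after the authors' scaling by one factor per library and rounding. They summed to between 4831007 and 4921406 in LNA Control and to between 4758777 and 4762957 in LNA Malat1. Malat1 itself had 5051, 5197, and 4369 normalized counts in LNA Control replicates 1 to 3 and 2833, 2792, and 2732 in LNA Malat1 replicates 1 to 3, with no overlap of the groups. The LNA Malat1 mean was 57.2% of the LNA Control mean (adjusted p = 7.46e-06 by limma). LNA Malat1 replicates 1 and 3 differed by less than the sampling noise (chi-square of 0.949 per gene, near the 1 that noise alone gives) and were counted as 1 sample in each mean ± SD, so n = 2 there. Replicates 1 and 2 did not differ beyond it either (1.01 per gene), while replicates 2 and 3 did (1.16 per gene). LNA Control replicates 1 and 3 were farthest apart, with a chi-square of 4.23 per gene. Of 12 cardiomyocyte markers, 11 were in the table, and their sum was 5414 to 5733 in LNA Control and 5228 to 5422 in LNA Malat1. Actc1, cardiac actin, had 409 to 475 normalized counts over the 6 libraries, while Myh6, the alpha myosin heavy chain of adult atrium, had 0 to 7. Of the 10 cardiomyocyte markers tested, 2 rose, Actn2 (log2 change of 0.71, adjusted p = 0.00109 by limma) and Tnnt2 (0.15, adjusted p = 0.0343), and 2 fell, Gata4 (-0.21, adjusted p = 0.00790) and Tbx5 (-0.22, adjusted p = 0.0450). Tnnt2 and Tbx5 each passed in 1 of the 6 fits that leave out 1 library. The fibroblast markers in the table summed to 5304 to 5910 and to 4683 to 4816, the endothelial markers to 22 to 31 and to 36 to 37, the immune markers to 35 to 37 and to 59 to 90, and the smooth muscle markers to 1512 to 1678 and to 1553 to 1701. Among these, limma called Col3a1 lower (-0.33, adjusted p = 0.00136) and Csf1r (1.19, adjusted p = 0.0125), Cd68 (0.79, adjusted p = 0.0226), and Cnn1 (0.40, adjusted p = 0.00355) higher. Csf1r passed in 4 and Cd68 in 2 of the 6 fits without 1 library. The part of these markers in the results was not tested.

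Oxidative phosphorylation genes were slightly lower after LNA Malat1, and no member passed the test in the direction of a rise. Of the 96 members with a mean of at least 5 normalized counts, 19 fell with adjusted p not above 0.05 and 0 rose (limma, Benjamini-Hochberg adjustment over 15650 genes). Over all genes tested, 14.0% fell and 14.3% rose. The members are mostly well expressed, and among the protein-coding genes with a mean of at least 50 normalized counts 20.6% fell and 11.0% rose. Of the 89 members with such a mean, 18 fell, which is 20.2%. The share of members that fell was therefore close to that of genes of like expression, and the count alone does not set the members apart. At an unadjusted p under 0.05, 30 members were lower and 1 was higher. Of the 89 members with a mean of at least 50, 29 were lower and 1 was higher. Among the 9918 protein-coding genes with such a mean, 2724 were lower and 1545 were higher at this threshold. With limma's voom on recovered reads 19 members were lower and 0 were higher, against 2059 and 1109 of these 9918 genes.

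The changes were small. The log2 fold change was negative in 83 of the 96 members, and the median was -0.12, with the middle members between -0.20 and -0.056 (lower and upper quartiles). For all genes tested the median was 0.018 and the quartiles were -0.15 and 0.27, and for the protein-coding genes with a mean of at least 50 the median was -0.040. In 38 members all LNA Malat1 libraries lay below all LNA Control libraries, against 20.8% of all genes tested, and in 1 member, Ndufb4, they lay above, against 20.5%. With a fold change of at least 1.5 required as well, 1 member was downregulated, against 2.92% of all genes, and 0 were upregulated, against 8.00%. Among protein-coding genes with a mean of at least 50 these shares were 3.47% and 2.38%, and all LNA Malat1 libraries lay below the controls in 29.7% and above them in 16.2%, against 37 and 1 of the 89 members with such a mean. The number that fell was 10 without LNA Malat1 replicate 3, 27 without LNA Control replicate 3, 12 with LNA Malat1 replicates 1 and 3 as 1 sample, and 32 after correction for exonic length and GC content. Without LNA Malat1 replicate 3, 1 member, Sdhaf1, rose, against 1327 of all 15650 genes tested. Of the 19 members, 10 passed in each of the 6 fits that leave out 1 library, namely Ndufa9, Ndufb8, Ndufa8, Ndufv3, Ndufaf5, Sdhaf4, Sdha, Sdhb, Sdhd, and Atp5d.

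**Figure D1:**
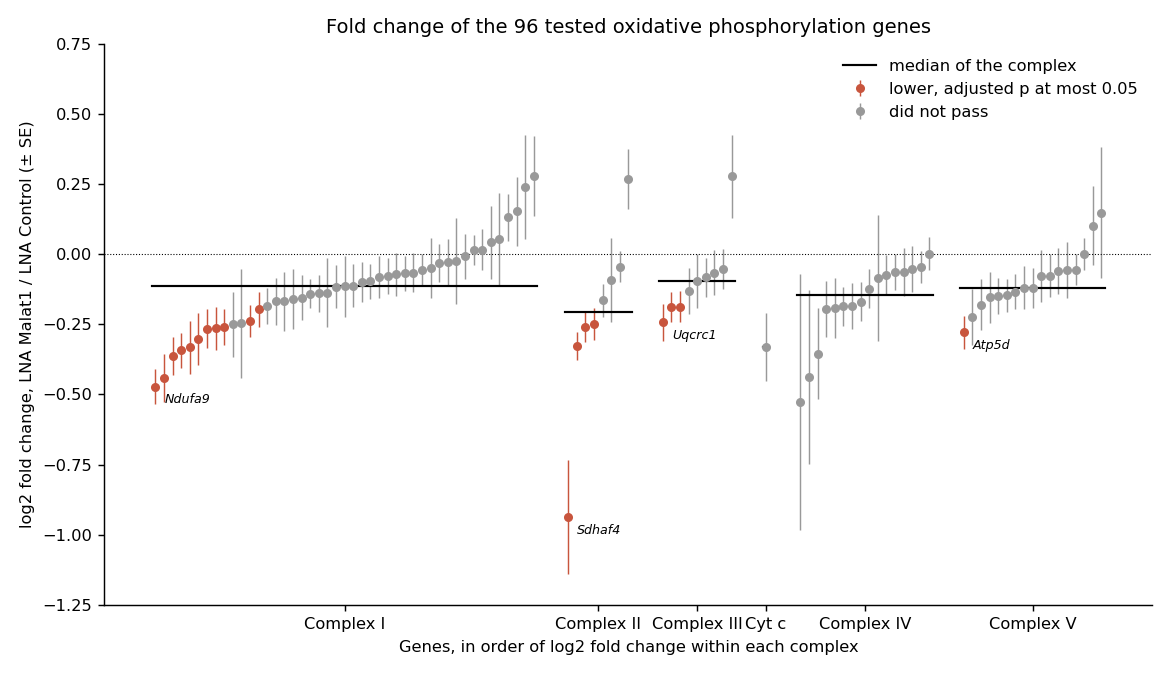
Log2 fold change of LNA Malat1 over LNA Control (vertical axis) for the 96 tested members, in order within each complex (horizontal axis). Points are genes, bars are standard errors, red points passed the test, and black lines are medians of a complex. The red points other than Atp5d lie in complexes I, II, and III, and Sdhaf4 lies lowest at -0.94.

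The summed level of the 99 members was 27455, 27630, and 25851 normalized counts in the controls and 24708, 25054, and 23780 after LNA Malat1. The groups did not overlap, although LNA Control replicate 3 lay nearer to LNA Malat1 than the other controls did. LNA Malat1 had 90.9% of the LNA Control sum, while the protein-coding genes with a mean of at least 50 had 96.7%. By complex the percentage was 91.0 for complex I, 86.1 for complex II, 90.0 for complex III, 93.2 for complex IV, and 92.2 for complex V. The sums of complexes I, II, III, and IV did not overlap between the groups, while for complex V 1 LNA Malat1 library, at 6818, lay above LNA Control replicate 3, at 6678. Fewer cells rich in these transcripts and less of their RNA per cell cannot be told apart in bulk libraries.

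**Figure D2:**
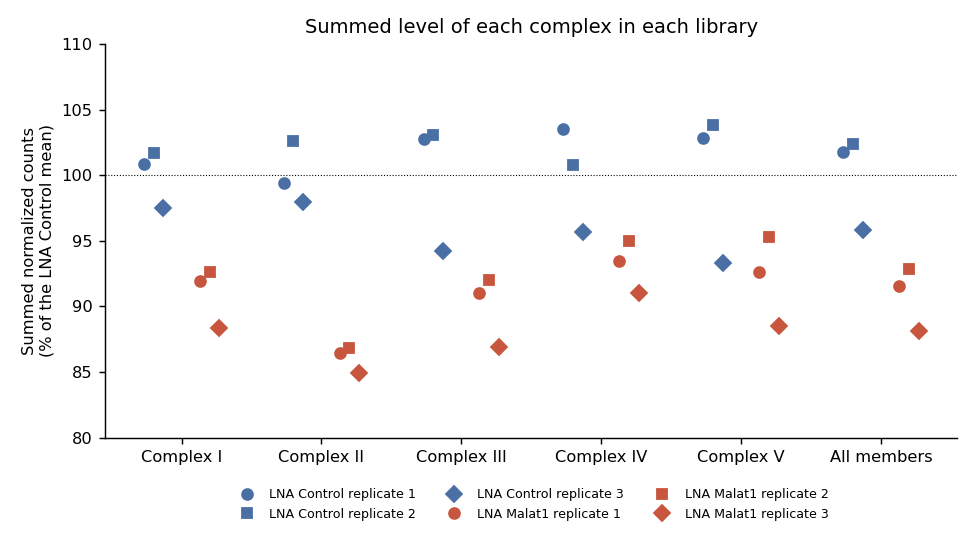
Summed normalized counts of each complex and of all members in each of the 6 libraries, as a percentage of the LNA Control mean (vertical axis, which begins at 80%). The LNA Malat1 libraries of complex II sit farthest below the controls, with 86.1% on average, and LNA Malat1 replicate 3 is the lowest library in each complex.

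Complex I, the NADH dehydrogenase, held 11 of the 19 members that fell, out of 45 tested. That was 24.4% of the complex, close to the 20.6% of protein-coding genes with a mean of at least 50. The median log2 fold change of complex I was -0.11. The count was 5 without LNA Malat1 replicate 3, 7 without LNA Malat1 replicate 1, and 14 without LNA Control replicate 3. The largest fall was in Ndufa9 (chr6:126821721-126849136, mm10), which encodes a subunit in the arm that reaches into the matrix. It had 342, 331, and 333 normalized counts in the controls and 249, 250, and 226 after LNA Malat1. The groups were far apart relative to their spread, with 335 ± 5.86 (SD, n = 3) against 244 ± 8.84 (SD, n = 2). With all 6 libraries the change was -0.47 ± 0.063 (SE) on the log2 scale, and the adjusted p was 0.00015 by limma. With LNA Malat1 replicates 1 and 3 merged, the adjusted p was 0.00135 by limma. Ndufb8, a subunit of the membrane arm, had 214, 227, and 200 normalized counts in the controls and 173, 154, and 145 after LNA Malat1. Its log2 fold change was -0.44 ± 0.085 (adjusted p = 0.00207 by limma), and the groups did not overlap. Ndufa8, another supernumerary subunit, had 297, 299, and 269 normalized counts in the controls and 234, 216, and 221 after LNA Malat1. Its log2 change was -0.36 (adjusted p = 0.00168 by limma), again without overlap. The exons of Ndufa9 overlap an antisense gene, and whether counting used strand is not given in the sources used here. Reads from the overlap therefore cannot be told apart. The longest coding transcript of Ndufa9, however, shares 0% of its read-length windows with other annotated genes. Exons of Ndufb8 overlap another gene on the same strand, with 2.90% of read-length windows shared.

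Supernumerary subunits, which surround the catalytic core, made up 29 of the complex I members, and 7 of them fell. This was 24.1%, against 20.6% of protein-coding genes with a mean of at least 50. Beside those above, the subunits that fell were Ndufv3, Ndufa12, Ndufb5, and Ndufs4, with log2 fold changes of -0.34, -0.30, -0.26, and -0.20. Ndufv3 had 357, 394, and 370 normalized counts in the controls and 306, 295, and 282 after LNA Malat1 (adjusted p = 0.00136 by limma). The lowest control stood above the highest LNA Malat1 library in each of the 7 genes. Exons of Ndufb5 overlap those of Mrpl47 on the opposite strand, with 14.1% of windows shared. Ndufa12 shares 22.0% of its windows with a processed pseudogene. Calls for Ndufa12, Ndufb5, and Ndufs4 were lost when LNA Malat1 replicates 1 and 3 were merged (adjusted p of 0.0725, 0.0672, and 0.111 by limma). The same 3 genes also failed when single libraries were left out, with adjusted p by limma of up to 0.0998 for Ndufa12 (LNA Control replicate 2, LNA Malat1 replicate 1 or 3), 0.106 for Ndufb5 (LNA Control replicate 3, LNA Malat1 replicate 1 or 3), and 0.133 for Ndufs4 (LNA Control replicate 1 or 2, LNA Malat1 replicate 1 or 3).

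The 7 core subunits carry the flavin and the iron-sulfur clusters, and 2 of these subunits fell. This was 28.6%, against 20.6% of protein-coding genes with a mean of at least 50. Ndufv1, which binds NADH and the flavin, had 534, 538, and 494 normalized counts in the controls and 445, 460, and 423 after LNA Malat1 (log2 change of -0.24, adjusted p = 0.00878 by limma). Ndufs7, which carries an iron-sulfur cluster near the ubiquinone site, had 295, 305, and 270 against 256, 237, and 230 (log2 change of -0.27, adjusted p = 0.0135 by limma). Neither gene had overlapping groups. Ndufv1 did not pass without LNA Malat1 replicate 3 (adjusted p = 0.0529 by limma), nor did Ndufs7 without LNA Control replicate 2, LNA Malat1 replicate 2, or LNA Malat1 replicate 3 (adjusted p of 0.0675, 0.0541, and 0.0672 by limma). The other core subunits did not pass, and their values ran from the control level in Ndufs1, the largest subunit, with 958, 972, and 902 against 950, 982, and 930 and a sign that changed with median-of-ratios scaling, to a log2 fold change of -0.14 in Ndufv2.

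Of the 8 complex I assembly factors, Ndufaf6 and Ndufaf5 fell (25.0%, against 20.6% of protein-coding genes with a mean of at least 50). Ndufaf6 had 128, 116, and 124 normalized counts in the controls and 95, 104, and 93 after LNA Malat1 (log2 change of -0.33, adjusted p = 0.0200 by limma). Ndufaf5, a methyltransferase-like enzyme that modifies Ndufs7, had 259, 255, and 275 against 222, 215, and 221 (log2 change of -0.26, adjusted p = 0.00882 by limma). The groups did not overlap in either gene, and Ndufaf6 did not pass without LNA Malat1 replicate 1 or 3 (adjusted p of 0.0719 and 0.0742 by limma) or with these 2 merged (0.0640). Ndufaf4 and Ndufaf7 stood just outside the threshold, with log2 fold changes of -0.14 and -0.18 and adjusted p of 0.0581 and 0.0513 (limma). The largest positive value of the complex was that of Ndufb4, chosen here after its values were seen, at 43, 50, and 49 in the controls and 52, 58, and 63 after LNA Malat1 (log2 change of 0.28, adjusted p = 0.168 by limma). Ndufb4 shares 35.2% of its read-length windows with other annotated genes, chiefly a processed pseudogene, so reads of it were lost in counting.

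Complex II, succinate dehydrogenase, joins the respiratory chain to the citric acid cycle, is encoded wholly in the nucleus, and had 4 of its 8 members fall. This was 50.0%, against 20.6% of protein-coding genes with a mean of at least 50. The median log2 fold change of complex II was -0.21. After correction for exonic length and GC content it was -0.21 as well, while that of complex IV was -0.24, and whether complexes differ was not tested. All 4 subunits were lower in each LNA Malat1 library than in any control. Sdha (chr13:74322254-74350280), the flavoprotein that oxidizes succinate, had 942, 950, and 899 normalized counts in the controls and 754, 747, and 722 after LNA Malat1. This was 930 ± 27.4 (SD, n = 3) against 743 ± 6.36 (SD, n = 2). With all 6 libraries the log2 change was -0.33 ± 0.050 (adjusted p = 0.000439 by limma). With LNA Malat1 replicates 1 and 3 merged, the adjusted p was 0.00474 by limma. Sdhb, the iron-sulfur subunit, had 442, 454, and 415 against 365, 375, and 362, and had a log2 change of -0.25 (adjusted p = 0.00574 by limma). Of the membrane anchors, Sdhd had 391, 406, and 386 against 329, 322, and 337, with a log2 fold change of -0.26 (adjusted p = 0.00397 by limma). The other anchor, Sdhc, had 341, 361, and 338 against 304, 304, and 320 and did not pass (log2 change of -0.16, adjusted p = 0.0527 by limma). The 3 subunits that fell did so to between 79.7% and 84.1% of the control mean, so their relative decreases were alike in size.

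The largest fall of any member was in Sdhaf4 (chr1:23995939-24005656), an assembly factor that binds the flavin-loaded Sdha before it joins Sdhb. It had 51, 50, and 53 normalized counts in the controls and 21, 36, and 24 after LNA Malat1. The controls were close together and the LNA Malat1 libraries were scattered below them, with 51.3 ± 1.53 (SD, n = 3) against 29.3 ± 9.55 (SD, n = 2). Taken singly, the 3 LNA Malat1 libraries had a mean of 52.6% of the control mean. The log2 fold change was -0.94 ± 0.20 (adjusted p = 0.00442 by limma), the fall among members that passed 1.5-fold. With LNA Malat1 replicates 1 and 3 merged, the adjusted p of Sdhaf4 was 0.0258 by limma. Sdhaf4 passed in each of the 6 fits without 1 library, but its low counts keep it out of a test limited to genes with a mean of at least 50. Its exons overlap another annotated gene on the opposite strand, with 6.24% of windows shared. The remaining complex II factors did not pass. Sdhaf2, which helps to attach the flavin, had 404, 427, and 431 against 410, 419, and 395 and a sign that changed with quantile normalization, and Sdhaf3 had 51, 52, and 55 against 49, 43, and 57. Sdhaf1, chosen here after its values were seen, had 94, 104, and 99 against 130, 127, and 103, with a log2 fold change of 0.27 (adjusted p = 0.0830 by limma). For Sdhaf1, 68.7% of read-length windows occur in an overlapping annotated gene, so its counts are uncertain.

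In complex III, which takes electrons from ubiquinol to cytochrome c, 3 of 9 members fell, and the median log2 fold change was -0.095. The share that fell was 33.3%, against 20.6% of protein-coding genes with a mean of at least 50. Both core proteins fell. Uqcrc1 had 791, 802, and 685 normalized counts in the controls and 664, 639, and 618 after LNA Malat1 (log2 change of -0.24, adjusted p = 0.0145 by limma). Uqcrc2 had 748, 790, and 723 against 648, 686, and 649 (log2 change of -0.19, adjusted p = 0.0202 by limma). Cyc1, the cytochrome c1 subunit that hands electrons to cytochrome c, had 464, 453, and 430 against 390, 391, and 402 (log2 change of -0.19, adjusted p = 0.0226 by limma). Exons of Uqcrc2 overlap those of Pdzd9 on the opposite strand, with 23.8% of windows shared. The groups did not overlap in these 3 genes, but merging LNA Malat1 replicates 1 and 3 left none of them past the threshold (adjusted p of 0.0524, 0.0831, and 0.0587 by limma). Uqcrc1 also failed without LNA Control replicate 2, LNA Malat1 replicate 2, or LNA Malat1 replicate 3 (adjusted p up to 0.0795 by limma), and Uqcrc2 without LNA Control replicate 2 or LNA Malat1 replicate 1 or 3 (up to 0.0927). Cyc1 held up only without LNA Control replicate 3, and its adjusted p reached 0.0852 without LNA Malat1 replicate 1 (limma).

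The Rieske iron-sulfur subunit Uqcrfs1 had 530, 519, and 451 against 465, 498, and 451, with overlapping groups. The 5 small subunits did not pass either and lay between -0.13 and 0.28 in log2 fold change. Their upper end was Uqcr11, chosen after its values were seen, with 45, 51, and 60 against 68, 64, and 57 (adjusted p = 0.180 by limma). Cycs, cytochrome c itself, had 91, 87, and 75 normalized counts in the controls and 69, 62, and 69 after LNA Malat1. The groups did not overlap, and the log2 fold change of -0.33 ± 0.12 did not pass (adjusted p = 0.0574 by limma). Cycs shares 26.1% of its windows with other annotated genes.

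Complex IV, cytochrome c oxidase, had 0 of 16 tested members pass in either direction by limma, and voom on recovered reads also gave 0. Among protein-coding genes with a mean of at least 50, 20.6% fell and 11.0% rose. At an unadjusted p under 0.05, 4 complex IV members were lower and 0 were higher. Of the 9918 protein-coding genes with a mean of at least 50, 2724 were lower and 1545 were higher at this threshold. The median log2 fold change of all 16 was -0.15, no nearer to 0 than the -0.11 of complex I, and 15 of the 16 values were negative. The 11 general subunits alone had a median of -0.073, which was nearer to 0 than that of complex I. The 3 heart and skeletal muscle forms, with means of 5.33 to 50.8 normalized counts, had a median of -0.35. Ndufa4l2, with a mean of 14.5, was at -0.44. After correction for exonic length and GC content 6 of the 16 passed as lower, and without LNA Control replicate 3, 1 did. The principal mRNAs of this complex had a median length of 652 bases, the shortest of the complexes, against 3032 for all genes tested. The exonic length, which the correction used instead, had a median of 1113 bases in complex IV, against 3827 for all genes tested. A p that misses the threshold does not show that complex IV was unchanged.

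Several complex IV subunits exist as a general form and a form of heart and skeletal muscle or of other tissues, and HL-1 cells carried mostly the general forms. Levels are given as normalized counts per kilobase of the principal mRNA, averaged over the 6 libraries. Cox4i1 was the highest member of the complex at 605 per kilobase, while its lung and hypoxia counterpart Cox4i2, with 0, 1, and 0 normalized counts in the controls and 2, 2, and 3 after LNA Malat1, was too low to test. Cox6a1 was at 288 and its heart form Cox6a2 at 34.1, Cox8a was at 425 and its heart form Cox8b at 14.8, and Cox6b1 was at 298 and its testis form Cox6b2 at 3.70. Cox7a1, a heart form, was at 129 per kilobase and its general form Cox7a2 at 261, and the supercomplex factor Cox7a2l was at 163.

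None of the isoform genes passed the test. Cox7a1 had 59, 61, and 51 normalized counts in the controls and 53, 43, and 38 after LNA Malat1, and the groups overlapped (log2 change of -0.35 ± 0.16, adjusted p = 0.120 by limma). The heart form Cox6a2 had 22, 30, and 20 against 20, 25, and 22, and Cox8b had 3, 9, and 8 against 3, 5, and 4, both overlapping. Of the general forms, Cox8a had 263, 253, and 231 against 214, 227, and 215 without overlap (log2 change of -0.18, adjusted p = 0.0662 by limma). Cox6b1 had 197, 198, and 190 against 175, 167, and 178, also without overlap (log2 change of -0.17, adjusted p = 0.0886 by limma). Cox7a2 had 176, 179, and 183 against 163, 168, and 163, also without overlap (log2 change of -0.12, adjusted p = 0.216 by limma). Cox7a2l had overlapping groups (log2 change of -0.18, adjusted p = 0.116 by limma). Cox4i1 had 480, 501, and 438 against 469, 463, and 425, with a log2 fold change of -0.063 that turned to 0.0027 under quantile normalization. Cox6a1 had 176, 152, and 175 against 163, 162, and 159. Ndufa4, now counted with complex IV, had 157, 155, and 135 against 144, 146, and 137, and its hypoxia-responsive paralog Ndufa4l2 had 18, 11, and 22 against 10, 15, and 11.

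**Figure D3:**
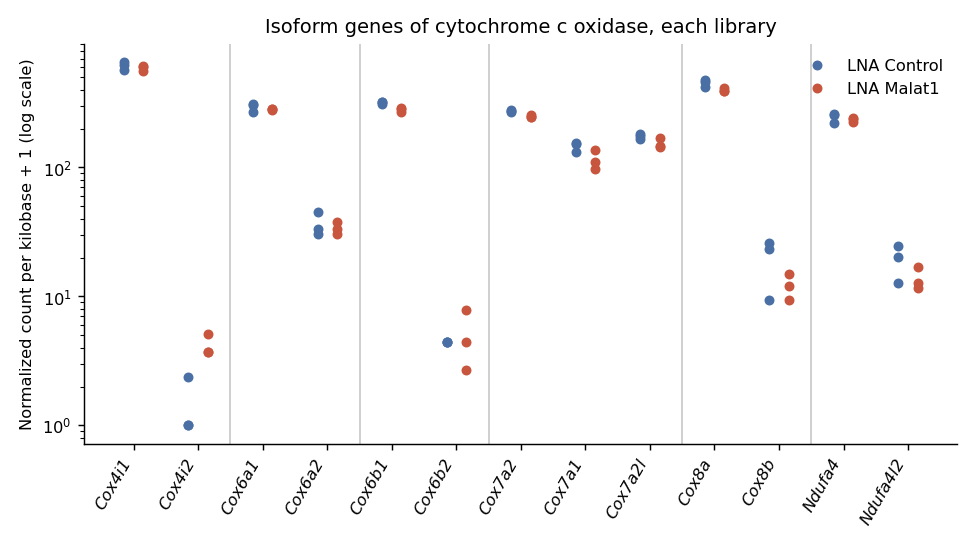
Normalized counts per kilobase of principal mRNA plus 1 (vertical axis, log scale) for the complex IV isoform genes (horizontal axis), with 1 point per library and grey lines between families. The general forms lie above the muscle, testis, or hypoxia forms in each family shown, and Cox7a1, at 129 per kilobase on average, is the highest of the latter.

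In complex V, the ATP synthase, 1 of 17 members fell (5.88%, against 20.6% of protein-coding genes with a mean of at least 50). The median log2 fold change of the complex was -0.12. Without LNA Control replicate 3, and also after correction for exonic length and GC content, 4 fell. The gene was Atp5d, the delta subunit of the F1 central stalk, with 367, 350, and 339 normalized counts in the controls and 293, 279, and 298 after LNA Malat1. Its groups did not overlap, at 352 ± 14.1 (SD, n = 3) against 287 ± 11.7 (SD, n = 2). With all 6 libraries the log2 change was -0.28 ± 0.060 (adjusted p = 0.00420 by limma). With LNA Malat1 replicates 1 and 3 merged, the adjusted p was 0.0151 by limma. Exons of Atp5d overlap those of a gene on the opposite strand, with 0% of windows of its longest coding transcript shared. The catalytic F1 genes did not pass. Atp5b, the highest member of complex V at 790 per kilobase, had 1647, 1684, and 1400 against 1464, 1507, and 1374 (log2 change of -0.12, adjusted p = 0.234 by limma). Atp5a1 had 1573, 1599, and 1395 against 1399, 1443, and 1317 (log2 change of -0.13, adjusted p = 0.137 by limma). In both genes LNA Control replicate 3 lay among the LNA Malat1 libraries.

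The c-ring of the ATP synthase is made from 3 genes that encode the same mature protein. Atp5g3 was the most abundant, with a mean of 478 normalized counts against 132 for Atp5g1 and 19.3 for Atp5g2. Per kilobase it was at 661, against 28.1 for Atp5g1 and 26.5 for Atp5g2. The principal mRNA of Atp5g1 has 4715 bases, against 723 for Atp5g3 and 731 for Atp5g2, so its level per kilobase depends on the length used. Atp5g3 had 541, 483, and 484 normalized counts in the controls and 456, 460, and 444 after LNA Malat1 (log2 change of -0.15, adjusted p = 0.0804 by limma). Atp5g1 had 138, 143, and 146 against 106, 136, and 125 (log2 change of -0.22, adjusted p = 0.114 by limma). Both had separate groups, whereas Atp5g2, with 15, 20, and 20 against 21, 18, and 22, overlapped, and its log2 fold change of 0.15 turned to -0.20 under quantile normalization. The 4 stator subunits, which hold F1 in place, were between -0.078 and -0.00065, the narrowest range of the complex V groups. The ATPase inhibitor gene Atpif1, which the rule does not include, had 316, 337, and 307 against 308, 301, and 285 (log2 change of -0.10, adjusted p = 0.243 by limma).

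**Figure D4:**
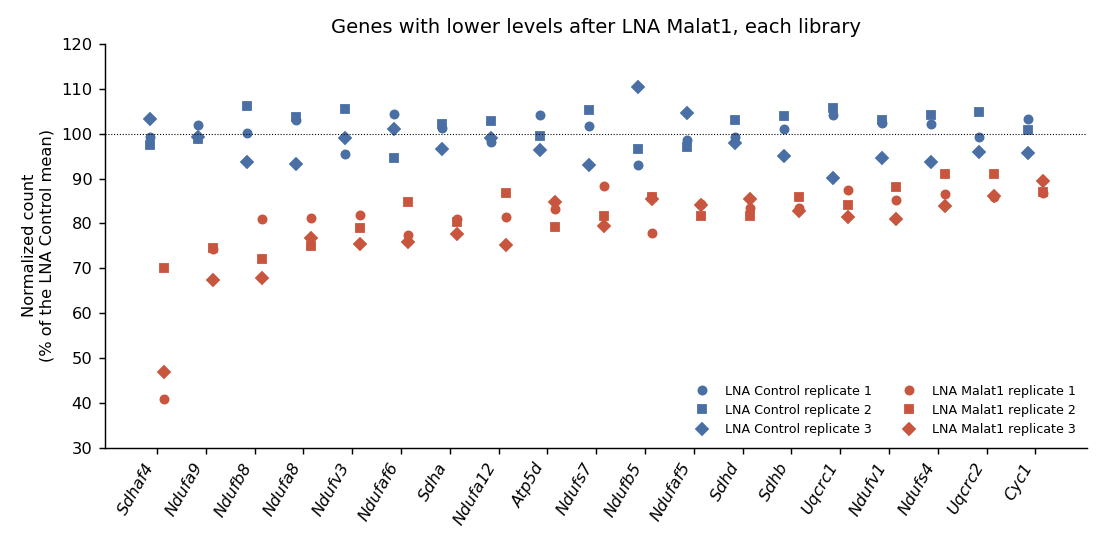
Normalized count in each library as a percentage of the LNA Control mean (vertical axis, which begins at 30%) for the 19 members that fell, in order of log2 fold change. In each gene the LNA Malat1 libraries lie below the controls, and Sdhaf4 has the widest spread, with 21, 36, and 24 normalized counts.

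Per kilobase of mRNA, the highest member was Sdhb in complex II (352), Uqcr10 in complex III (445), Cox4i1 in complex IV, and Atp5b in complex V. The lowest tested members were Ndufb2 (30.9), Sdhaf3 (11.8), Uqcr11 (129), Cox8b, and Atp5g2. Uqcr10 had 213, 192, and 187 normalized counts in the controls and 184, 205, and 177 after LNA Malat1, with overlap. Ndufb2 had 135, 148, and 144 against 127, 129, and 127 without overlap, but did not pass (log2 change of -0.15, adjusted p = 0.176 by limma). Lengths are those of the principal transcript in the annotation, some of which have long ends, and reads shared with pseudogenes are missing, so levels between genes are approximate. Of 98 members with a coding transcript, 42 share at least 1 window of 75 bases with another annotated gene, but the median share is 0, and of the 19 that fell 5 share any and 0 share 50% or more.

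Of 14 enzymes of the citric acid cycle, 5 fell and 0 rose (limma). This was 35.7%, against 14.0% of all genes tested and 20.6% of protein-coding genes with a mean of at least 50. All 14 had negative log2 fold changes, and the median was -0.13. Idh3g, a subunit of isocitrate dehydrogenase, had 678, 686, and 627 normalized counts in the controls and 564, 546, and 572 after LNA Malat1 (log2 change of -0.24, adjusted p = 0.00546 by limma). Suclg1, a subunit of succinate-CoA ligase, had 434, 450, and 406 against 364, 371, and 358 (log2 change of -0.24, adjusted p = 0.00862 by limma). The groups did not overlap in either gene. Of 42 further assembly factors of the complexes, 6 fell and 0 rose (median -0.088). The share that fell was 14.3%, against 14.0% of all genes tested and 20.6% of protein-coding genes with a mean of at least 50. Bcs1l, which inserts the Rieske protein into complex III, had 106, 114, and 104 against 79, 90, and 79 (log2 change of -0.38, adjusted p = 0.0150 by limma). Tmem186, a complex I assembly factor, had 306, 286, and 260 against 244, 240, and 207 (log2 change of -0.30, adjusted p = 0.0156 by limma). Both were separate between the groups, but Bcs1l did not pass without LNA Control replicate 2, LNA Malat1 replicate 1, or LNA Malat1 replicate 3 (adjusted p up to 0.0652 by limma), nor Tmem186 without LNA Control replicate 2 or LNA Malat1 replicate 3 (up to 0.0835).

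Of 8 tested genes of ATP export and reserve, 1 fell (12.5%, against 20.6% of protein-coding genes with a mean of at least 50). It was Slc25a4, the ADP/ATP carrier of heart muscle, with 918, 950, and 833 against 801, 824, and 769 (log2 change of -0.17, adjusted p = 0.0457 by limma). This call was kept only without LNA Control replicate 3, and the adjusted p was up to 0.178 without another library. Of 16 genes that copy and transcribe mitochondrial DNA, 3 rose and 0 fell, 9 had negative values, and the median was -0.038. The share that rose was 18.8%, against 14.3% of all genes tested and 11.0% of protein-coding genes with a mean of at least 50. Polg2, the accessory subunit of the mitochondrial DNA polymerase, had 60, 61, and 60 against 74, 82, and 81 (log2 change of 0.38, adjusted p = 0.0263 by limma). Mgme1, a nuclease of mitochondrial DNA, had 215, 235, and 213 against 290, 286, and 280 (log2 change of 0.37, adjusted p = 0.00116 by limma). The other was Twnk, the helicase, named after its values were seen, with a log2 fold change of 0.26. The LNA Malat1 libraries lay above the controls in these 3 genes, but Polg2 did not pass without LNA Control replicate 2 or LNA Malat1 replicate 2 or 3 (adjusted p up to 0.0907 by limma). Tfam, which packages and transcribes mitochondrial DNA, had 762, 788, and 723 against 760, 751, and 720 (log2 change of -0.026, adjusted p = 0.748 by limma), and its sign changed under quantile normalization, equal library totals, and correction for length and GC content. For comparison, 9 of 77 mitochondrial ribosomal protein genes fell and 0 rose, with a median of -0.085. Their share that fell was 11.7%, against 14.0% of all genes tested and 20.6% of protein-coding genes with a mean of at least 50. Of 82 cytosolic ribosomal protein genes, 0 fell and 2 rose, with a median of 0.027. Here the share that rose was 2.44%, against 11.0% of the same protein-coding genes.

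Among 12 tested nuclear regulators of mitochondrial genes, 7 fell and 0 rose (limma), which is 58.3%, against 20.6% of protein-coding genes with a mean of at least 50, and the median log2 fold change was -0.29. The largest fall was in Nrf1, nuclear respiratory factor 1, which binds promoters of many respiratory genes. It had 516, 546, and 506 normalized counts in the controls and 224, 254, and 249 after LNA Malat1, so the highest LNA Malat1 library lay far below the lowest control (log2 change of -1.11 ± 0.064, adjusted p = 2.63e-07 by limma). Ppara, a nuclear receptor of fatty acid use, had 101, 91, and 83 against 40, 51, and 40 (log2 change of -1.06, adjusted p = 0.000158 by limma). These were the regulators past 1.5-fold. Gabpa, the DNA-binding subunit of nuclear respiratory factor 2, had 1252, 1320, and 1279 against 919, 989, and 901 (log2 change of -0.46, adjusted p = 6.05e-05 by limma).

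Yy1, chosen here after its values were seen, had 629, 706, and 631 against 454, 453, and 479 (log2 change of -0.50, adjusted p = 6.05e-05 by limma). Esrra, an estrogen-related receptor active in heart, had 367, 383, and 370 against 287, 282, and 304 (log2 change of -0.36, adjusted p = 0.000647 by limma). Ppargc1a, the coactivator PGC-1 alpha, had 1470, 1553, and 1553 against 1243, 1259, and 1288 (log2 change of -0.27, adjusted p = 0.00174 by limma). The remaining one, Esrrg, also named after its values were seen, had a log2 change of -0.21 and did not pass without LNA Malat1 replicate 1 (adjusted p = 0.0857 by limma). No LNA Malat1 library reached a control in these 7 genes, and Nrf1, Ppara, Gabpa, Yy1, Esrra, and Ppargc1a passed in each of the 6 fits that leave out 1 library. The exons of Gabpa overlap those of the complex V gene Atp5j on the opposite strand, and Atp5j had 492, 502, and 496 against 454, 504, and 477. Whether the lower regulators and the lower members are connected was not tested.

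**Figure D5:**
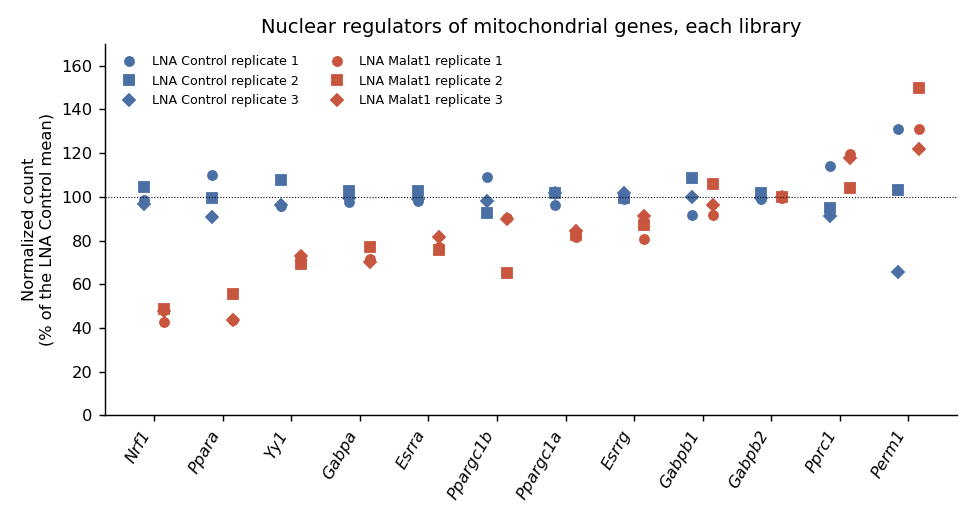
Normalized count in each library as a percentage of the LNA Control mean (vertical axis) for the 12 tested nuclear regulators of mitochondrial genes, in order of log2 fold change. Nrf1 and Ppara lie lowest in LNA Malat1, with 224 to 254 and 40 to 51 normalized counts, and Gabpb1 and Gabpb2 overlap the controls.

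Promoters of the members were searched for motifs of Nrf1, of ETS factors such as Gabpa, and of Yy1, the regulators named above. RefSeq promoters (GRCm38.p6, 250 bases before the start and 50 after it) matched 80 of the 99 members by symbol. The NRF1 motif CGCATGCGC was present on either strand in 13.8% of them, the ETS motif CCGGAAG, which Gabpa can bind, in 27.5%, and the YY1 motif AANATGGC in 25.0%. Among promoters of tested protein-coding genes the shares were 4.19%, 20.3%, and 10.1%, and among all 27025 promoters they were 1.95%, 9.93%, and 6.96%. The TATA motif TATAAA was present in 10.0% of member promoters, 8.48% of those of tested protein-coding genes, and 15.7% of all. The NRF1 motif is almost its own reverse complement, so that a longer match counts on both strands at neighbouring positions.

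The values of members with and without a motif are given side by side, and their difference was not tested. The median log2 fold change was -0.12 in the 11 tested members with the NRF1 motif and -0.13 in the 68 without it. It was -0.067 with the ETS motif and -0.15 without, and -0.11 with the YY1 motif and -0.14 without. Members that fell numbered 3 of 11 with the NRF1 motif and 13 of 68 without it, 2 of 22 with the ETS motif and 14 of 57 without it, and 5 of 20 with the YY1 motif and 11 of 59 without it. A match describes letters in the window and is not a bound site.

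Of the members that fell, 4 promoters are shown because they carry these motifs, from 250 bases before the start to 30 after it, 5′ to 3′ on the strand of the gene, with motifs in capitals. They are Ndufa8 (chr2:36049309-36049588, minus strand) and Ndufaf5 (chr2:140170396-140170675, plus strand) for the NRF1 motif, Sdhd (chr9:50603820-50604099, minus strand) for the ETS motif, and Ndufb5 (chr3:32736813-32737092, plus strand) for the YY1 motif.
Ndufa8: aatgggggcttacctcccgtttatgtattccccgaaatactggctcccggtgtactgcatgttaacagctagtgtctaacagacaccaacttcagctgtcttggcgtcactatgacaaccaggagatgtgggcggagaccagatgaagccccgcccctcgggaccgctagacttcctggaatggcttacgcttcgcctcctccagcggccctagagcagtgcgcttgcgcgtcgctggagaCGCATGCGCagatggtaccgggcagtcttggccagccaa
Ndufaf5: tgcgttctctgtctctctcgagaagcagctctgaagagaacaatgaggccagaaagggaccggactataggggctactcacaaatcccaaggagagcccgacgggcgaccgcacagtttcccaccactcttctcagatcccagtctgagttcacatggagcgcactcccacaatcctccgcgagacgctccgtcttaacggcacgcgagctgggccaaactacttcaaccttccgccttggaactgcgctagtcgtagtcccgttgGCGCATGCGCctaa
Sdhd: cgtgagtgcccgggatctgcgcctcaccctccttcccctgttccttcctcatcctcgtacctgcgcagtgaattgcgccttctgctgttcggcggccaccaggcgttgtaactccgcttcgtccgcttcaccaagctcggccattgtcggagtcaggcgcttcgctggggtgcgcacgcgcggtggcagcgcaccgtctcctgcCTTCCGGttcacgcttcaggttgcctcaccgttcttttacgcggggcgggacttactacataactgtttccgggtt
Ndufb5: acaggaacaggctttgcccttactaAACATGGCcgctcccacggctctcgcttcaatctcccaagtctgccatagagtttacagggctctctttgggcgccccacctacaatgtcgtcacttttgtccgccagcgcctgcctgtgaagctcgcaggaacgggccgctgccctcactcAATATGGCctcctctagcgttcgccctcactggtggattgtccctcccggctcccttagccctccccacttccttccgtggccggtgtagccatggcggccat
In Ndufa8 the NRF1 motif begins 9 bases before the annotated start, and in Ndufaf5 overlapping matches lie just inside the transcript. The ETS motif of Sdhd stands in reverse orientation, and Ndufb5 holds the YY1 motif at a pair of positions upstream of its start.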

How the data were processed

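Total RNA of 6 HL-1 libraries was sequenced as single reads of 75 bases with a stranded kit. Per the study's methods and the submitters' processing notes, the authors trimmed reads with Trimmomatic 0.39, aligned them to mm10 with STAR 2.7.7a, counted reads on exons with featureCounts 1.6.5, and dropped reads that hit more than 1 gene or region. The deposited values are a score, namely the counts normalized with DESeq2 1.30.0 and rounded, not raw counts. The table's columns of the authors' own comparison (fold changes and p-values) were not used.

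Groups came from the sample labels. Genes with a mean of at least 5 (15650 of 21269) went into limma (version 3.58.1, R 4.3.3) as log2(normalized count + 1). The test was two-sided with a trend on mean level, and p-values were adjusted over all genes tested by the Benjamini-Hochberg method. A fold change is on this scale, which understates that of low genes. The second rule adds a fold change of at least 1.5. The scaling factors were recovered from rounding gaps and gave 4511701 to 5594258 reads per library, uncertain for LNA Malat1 replicate 2. Recovered reads cover counting error only. With 3 against 3 libraries, exact permutation gives no p below 0.1. A trial of the test on simulated counts used the same spread setting for every gene and library. In the data the chi-square per gene reached 4.23 between LNA Control libraries and 1.16 between LNA Malat1 libraries. The trial therefore does not check the calls made here.

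The members, gene lists, and tests were chosen with earlier results of these data known. Genes named singly were members past 1.5-fold, the 3 largest rises and falls per complex, isoform families, subunits of complex II, Cyc1, Cycs, the F1 alpha and beta genes, Atpif1, the highest and lowest level per complex, the 2 largest rises and falls of each related list, the main regulators, and Malat1. Other genes were named after their values were seen. 1 gene that the rule names is not reported here. Lengths, exon overlaps, and shared windows come from GENCODE M21, and promoters from RefSeq. Python 3.11.15 was used for summaries. Alternatives were the replicate block, a pseudocount of 0.1 or 5, quantile normalization, median-of-ratios scaling, equal library totals, a mean of at least 50 or no filter, voom weights on recovered reads, merging LNA Malat1 replicates 1 and 3, correction for exonic length and GC content, and leaving out each library.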

Additional observations from a re-analysis of the deposited data

How the results depend on the processing

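The number of members that fell (19) was 12 with LNA Malat1 replicates 1 and 3 as 1 sample, 32 after correction for exonic length and GC content, and 10 to 27 when 1 library was left out, and 17 to 23 under the other settings. The number that rose was 0 to 1 without 1 library, and 0 otherwise. The fall past 1.5-fold was 1 gene without any 1 library and 0 with a mean of at least 50, where Sdhaf4 was not tested. Counts of rises past 1.5-fold were 0 to 0. Correction for length and GC content gave medians of -0.18 for the members, -0.19 for complex I, -0.20 for complex III, and -0.24 for complex IV, beside -0.21 for complex II, equal library totals gave -0.083, -0.078 for complex I, and -0.17 for complex II, quantile normalization gave -0.089 for complex I, and a mean of at least 50 gave -0.16 for complex II. The cause of these shifts was not tested. Without 1 library the medians ranged from -0.15 to -0.089 for the members, -0.13 to -0.071 for complex I, -0.23 to -0.18 for complex II, -0.16 to -0.052 for complex III, -0.18 to -0.13 for complex IV, and -0.15 to -0.082 for complex V. The median of all genes tested was 0.018 and lay between -0.033 and 0.067 under other settings. Signs reversed for Atp5g2 (-0.20), Atp5j (0.016), Sdhaf2 (0.017), and Cox4i1 (0.0027) under quantile normalization, for Ndufs1 under median-of-ratios scaling (-0.0029) and over -0.017 to 0.037 without 1 library, for Tfam under quantile normalization (0.032), equal library totals (0.010), correction for length and GC content (0.0059), and without LNA Control replicate 2 (0.0024, against -0.060 without LNA Control replicate 3), for Cox6a2 without LNA Control replicate 2 (0.081, with -0.20 at the other end of the range), and for Sdhaf3 without LNA Malat1 replicate 2 (0.0057, with -0.19 at the other end). With the replicate block 20 members fell, 19 of them shared. Correlations of same-numbered libraries were 0.0858, 0.182, and 0.083, too low to show pairing, though each library correlated best with its own number. Depth limits Cox4i2, Cox6b2, and Cox5b-ps, which were too low to test.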
